A study of Mus musculus with 13 samples.

Results

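A set of 10 genes of the immediate early response was followed across 13 mouse brain hemispheres. They were the AP-1 subunit genes Fos, Fosb, Fosl2, Jun and Junb, the transcription factor genes Egr1, Npas4 and Nr4a1, the synaptic gene Arc and the phosphatase gene Dusp1. All 10 were chosen by name, out of 48795 gene identifiers in the table, and all 10 passed the filter on low counts in every comparison. Poly(A) RNA was sequenced from the right hemisphere of each mouse at postnatal day 11, after olfactory bulb and cerebellum had been removed. The 5 controls (NexCre -/- YAP5SAnls +/-) carried the YAP transgene without Cre, and 5 nlsYAP5SA mice (NexCre +/- YAP5SAnls +/-) carried both, so the 2 groups differed by the Cre allele. The 3 C57BL/6 wild-type mice carried neither, and the strain background of all 13 is given as C57BL/6J. nlsYAP5SA is a form of the Hippo pathway co-activator YAP1 that escapes inhibitory phosphorylation and carries a nuclear localisation signal. It sits behind a floxed STOP and is switched on by Cre from the Nex (Neurod6) locus, in neuronal precursors and in the pyramidal neurons of cortex and hippocampus that descend from them. By the study's methods the controls and nlsYAP5SA mice were littermates from 2 matings, and the C57BL/6 mice were not littermates of them. The labels do not say which mouse came from which litter, so litter was not modelled.

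Immediate early genes are transcribed within minutes of a stimulus and need no new protein synthesis for it. In neurons, synaptic activity and calcium entry act through MAP kinases and calcium-dependent kinases on the transcription factors CREB, SRF with its ternary complex partners, and MEF2, which stand ready at the promoters of these genes. Fos and Jun family proteins then pair as AP-1 through leucine zippers and bind DNA, Egr1, Npas4 and Nr4a1 act as further transcription factors, Arc acts at the synapse, and Dusp1 removes phosphate from MAP kinases and so limits the response. AP-1 is also known as a partner of YAP and its TEAD factors at enhancers, which is one reason to look at these genes in a YAP model.

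Promoters of these genes are shown first, since the signals above reach the genes there. RefSeq promoter sequences (GRCm38.p6) matched 8 of the 10 genes. No entry was matched for Egr1 or Arc. In the 250 bases before the RefSeq start, the core of the CREB response element (CGTCA, or TGACG on the other strand) was present in 6 of the 8 promoters. It was counted 4 times in Nr4a1, 3 times in Dusp1, 2 times each in Fos and Npas4 and once each in Fosb and Junb. The windows of Npas4, Fosl2, Dusp1 and Nr4a1 lie inside the gene as GENCODE bounds it, downstream of its outermost annotated start. Those of Npas4 and Fosl2 lie wholly in exons, that of Dusp1 with 47 of its bases, and that of Nr4a1, which is printed, in an intron, before the start of a shorter transcript. Of the 6 windows not wholly in exons, 5 held the core. Of all 32851 promoters in the table, 17.8% held it in the same window. The full palindrome TGACGTCA was in 1 of the 8, Dusp1, where it holds 2 of the cores counted above, and in 1.55% of all promoters. Neither AP-1 site (TGAGTCA or TGACTCA, 4.46% of all promoters) nor the serum response element (by its CArG box, 1.47%) was matched in any of the 8 windows. Sequence further upstream than 250 bases was not searched. The counts therefore do not show that the genes lack such sites. The TEAD motif GGAATG or CATTCC was in 1 of the 8, Nr4a1, and in 12.6% of all promoters. The 5 windows with few or no bases in exons are printed, with the CREB core in capitals. Fos, Fosb and Nr4a1 hold the core and were lower in nlsYAP5SA than in C57BL/6 mice. Junb also holds it and Jun does not, and neither passed the test in any comparison. Dusp1, with 3 cores and the palindrome, did not pass it either. A match is a description of the letters and not of binding. The Fos window lies at chr12:85473640-85473889 on the plus strand, Fosb at chr7:19310046-19310295 on the minus strand, Nr4a1 at chr15:101266596-101266845 on the plus strand, Junb at chr8:84978749-84978998 on the minus strand and Jun at chr4:95052223-95052472 on the minus strand.
Fos: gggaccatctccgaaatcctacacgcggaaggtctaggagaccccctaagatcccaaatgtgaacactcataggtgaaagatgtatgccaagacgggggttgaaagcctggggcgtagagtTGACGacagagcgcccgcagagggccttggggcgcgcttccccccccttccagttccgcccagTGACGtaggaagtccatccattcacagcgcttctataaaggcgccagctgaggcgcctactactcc
Fosb: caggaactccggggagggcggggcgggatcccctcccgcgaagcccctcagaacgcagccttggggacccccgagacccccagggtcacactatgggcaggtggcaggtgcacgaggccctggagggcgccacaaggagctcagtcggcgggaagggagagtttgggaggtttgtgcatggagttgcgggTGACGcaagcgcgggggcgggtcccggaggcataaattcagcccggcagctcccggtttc
Nr4a1: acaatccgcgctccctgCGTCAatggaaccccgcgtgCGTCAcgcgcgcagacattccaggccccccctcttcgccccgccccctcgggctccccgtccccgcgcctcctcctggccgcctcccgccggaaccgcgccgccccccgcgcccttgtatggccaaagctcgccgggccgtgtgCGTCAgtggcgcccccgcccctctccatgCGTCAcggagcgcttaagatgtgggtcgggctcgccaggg
Junb: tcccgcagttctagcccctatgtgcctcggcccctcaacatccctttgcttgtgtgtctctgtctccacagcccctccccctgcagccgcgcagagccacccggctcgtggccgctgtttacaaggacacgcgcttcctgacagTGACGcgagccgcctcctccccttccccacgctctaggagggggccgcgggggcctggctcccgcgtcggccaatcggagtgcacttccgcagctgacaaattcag
Jun: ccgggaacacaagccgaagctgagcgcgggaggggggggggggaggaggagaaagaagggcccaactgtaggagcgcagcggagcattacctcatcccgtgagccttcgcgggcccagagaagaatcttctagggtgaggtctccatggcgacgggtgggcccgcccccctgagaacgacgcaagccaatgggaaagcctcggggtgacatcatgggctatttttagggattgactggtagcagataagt

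Libraries held between 20871566 and 25524349 estimated counts, with group medians from 21851691 in nlsYAP5SA to 24211508 in controls. The groups carried their labels: Yap1 rose 1.17-fold against control (adjusted p = 0.0361), Cyr61, a YAP target gene, rose 5.56-fold, the targets Ctgf and Ankrd1 went from 17.8 to 48.1 CPM and from 0.132 to 4.91 CPM, and Neurod6, the locus that holds Cre, fell by 0.98 on the log2 scale. Counts of 4 Y-linked genes (Ddx3y, Eif2s3y, Kdm5d and Uty) were present in 5 of 5 controls, 2 of 5 nlsYAP5SA mice (replicates 3 and 4) and 2 of 3 C57BL/6 mice (replicates 1 and 3). The groups therefore differed in sex make-up. Values below are CPM (counts relative to the library's total) scaled by TMM, which corrects for library composition, and a gene was called at an adjusted p of 0.05 or less over all genes tested.

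Per kilobase of exon, Egr1 was the most abundant of the 10 transcripts, with a median of 19.7 CPM per kb over the 13 samples, and Fosb the least, with 0.483 CPM per kb. Jun (14.2), Arc (8.33), Junb (8.17), Nr4a1 (6.24), Fos (5.18), Dusp1 (4.28), Fosl2 (3.88) and Npas4 (1.39) lay between them, all as median CPM per kb. The ranges over samples of neighbours in this order overlapped, except that every sample of Fosl2 was above every sample of Npas4. Between the lowest and the highest sample, Fosb varied 3.6-fold, Npas4 2.82-fold and Arc 2.81-fold, whereas Jun varied 1.19-fold. Fosb rested on 34 to 132 counts per sample and Npas4 on 67 to 192, whereas Egr1 had 1632 to 3331, so the first 2 carry the largest counting error. Jun overlaps the antisense gene Junos, Junb overlaps Prdx2 on the opposite strand and Dusp1 overlaps Ergic1 and Gm8225. The strand setting of the counting is not stated, Prdx2 was at 157 to 252 CPM, far above Junb, and Ergic1 at 118 to 136 CPM, far above Dusp1, so reads at the overlap cannot be assigned with certainty.

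**Figure D1:**
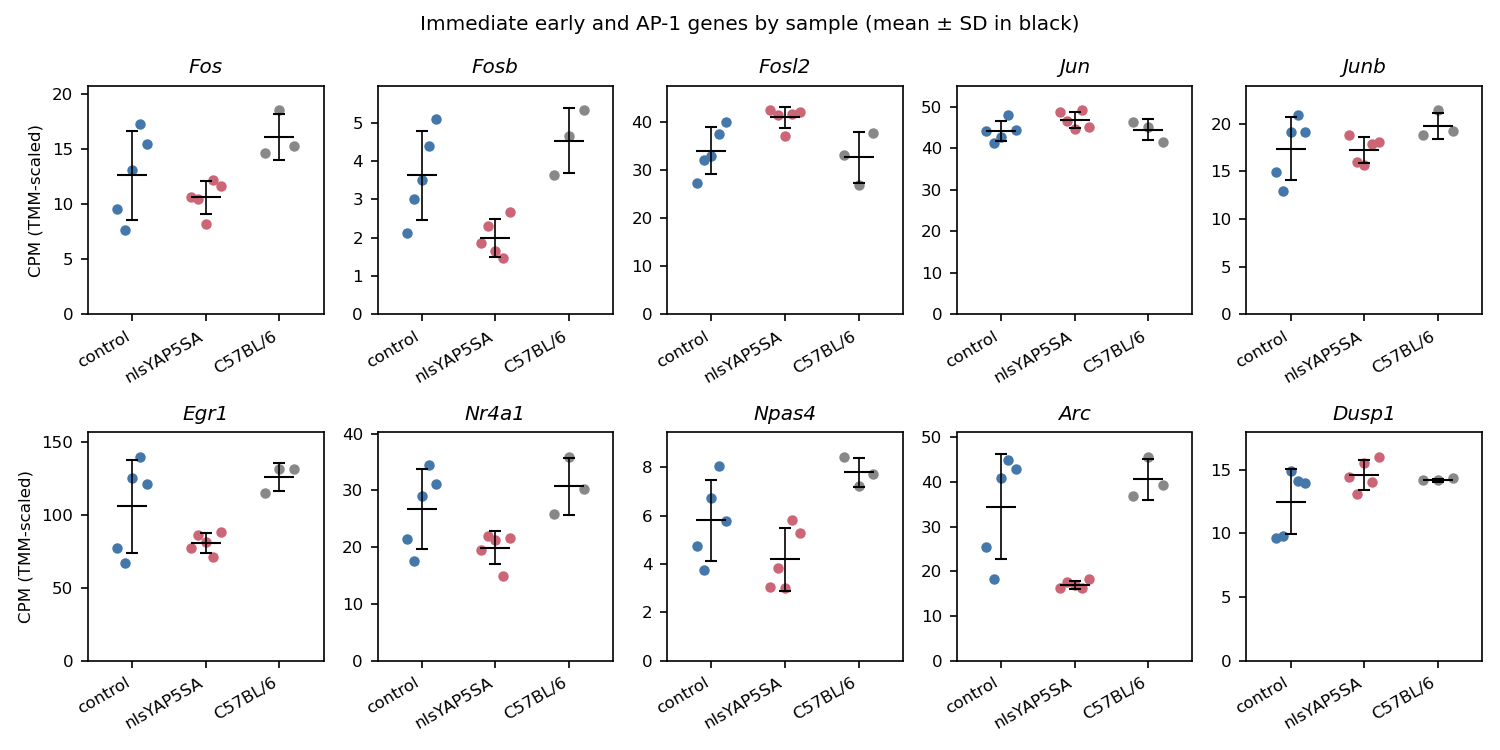
TMM-scaled CPM of the 10 genes in each sample (points) with the group mean and SD (black), for 5 control, 5 nlsYAP5SA and 3 C57BL/6 mice. The nlsYAP5SA points of Arc lie between 16.2 and 18.2 CPM, below every other sample, whereas Jun lies between 41.4 and 49.2 CPM in all groups.

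The first comparison asked whether early genes differed between mice with and without the active transgene. No group carried Cre without the transgene. The active transgene and the Cre allele at the Neurod6 locus therefore cannot be told apart here. Of the 10 genes, 2 (Arc and Fosb) fell in nlsYAP5SA against control, and none rose. Over all 16315 genes tested, 3.44% were called lower and 7.36% higher. The median log2 fold change of the 10 was -0.32, against -0.01 over all genes tested. Arc was also the 1 gene of the 10 with every nlsYAP5SA sample below every control, which 3.57% of all genes tested showed.

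Arc encodes a synaptic protein that acts in the removal of AMPA receptors from the synapse and whose RNA travels into dendrites. It lies at chr15:74669083-74672570 on the minus strand (GRCm38). Its level was 25.5, 18.4, 41.0, 44.9 and 42.8 CPM in controls 1 to 5. In nlsYAP5SA mice 1 to 5 it was 16.2, 17.5, 17.0, 16.2 and 18.2 CPM. The nlsYAP5SA values lay close together and below all controls, but control 2 was only just above them, and controls 1 and 2 stood apart from the other 3. Arc fell 2.03-fold, by 1.02 ± 0.20 on the log2 scale (SE, n = 5 and 5, adjusted p = 0.00635).

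Fosb encodes an AP-1 subunit whose truncated product is known to build up in neurons with repeated activity. It lies at chr7:19302696-19310051 on the minus strand. It was at 2.13, 3.01, 3.50, 4.41 and 5.10 CPM in controls and at 1.85, 2.31, 1.65, 1.48 and 2.67 CPM in nlsYAP5SA mice. Control 1 lay within the nlsYAP5SA range and the other 4 controls lay above it. Fosb fell 1.82-fold, by 0.86 ± 0.24 on the log2 scale (SE, n = 5 and 5, adjusted p = 0.034). Among samples with Y-linked counts only, an alternative chosen after seeing the data, the log2 fold change was -1.06 for Arc (adjusted p = 0.201) and -1.21 for Fosb (adjusted p = 0.136), with 2 nlsYAP5SA mice against 5 controls. With the Y-linked level as a covariate it was -1.04 for Arc (adjusted p = 0.0935) and -1.17 for Fosb (adjusted p = 0.0778). Both estimates were thus as low or lower, and neither gene was called.

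The other AP-1 genes did not pass the test here. Fos, the founding partner of Jun, was at 7.63 to 17.3 CPM in controls, with a median of 13.1, and at 8.19 to 12.2 CPM in nlsYAP5SA mice (log2 fold change -0.25 ± 0.20, adjusted p = 0.485). Fosl2, which encodes Fra-2, was at 34.0 ± 4.92 CPM in controls and 40.9 ± 2.2 CPM in nlsYAP5SA mice (SD, n = 5 each; log2 fold change 0.27 ± 0.09, adjusted p = 0.0758). In 2 of 22 alternative fits Fosl2 was called higher, without control 5 (0.33, adjusted p = 0.0292) and with an offset for GC content and length (0.25, adjusted p = 0.0437). Jun, at 44.2 against 46.9 CPM, and Junb, at 17.4 against 17.3 CPM, had log2 fold changes of 0.08 ± 0.05 and -0.01 ± 0.12. The sign of the Junb value turned in 4 alternative fits and in 5 fits that left out 1 sample each.

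Egr1, Nr4a1 and Npas4 had mean values below control without passing the test. Egr1, a zinc finger factor widely used as a marker of neuronal activity, was at 77.1, 67.3, 125, 140 and 121 CPM in controls and at 77.3, 86.3, 81.7, 71.0 and 88.3 CPM in nlsYAP5SA mice. Controls 1 and 2 lay within or below the nlsYAP5SA range and controls 3 to 5 lay above it. The log2 fold change was -0.39 ± 0.17 (adjusted p = 0.184). Nr4a1, an orphan nuclear receptor gene, showed the same arrangement, with 21.5, 17.5, 29.0, 34.5 and 31.1 CPM in controls and 14.9 to 21.9 CPM in nlsYAP5SA mice (-0.43 ± 0.17, adjusted p = 0.137). Npas4, a neuron-specific factor that answers calcium entry, was at 3.76 to 8.06 CPM in controls and 2.99 to 5.83 CPM in nlsYAP5SA mice (-0.47 ± 0.23, adjusted p = 0.239). Dusp1 was at 9.65 to 14.9 CPM in controls and 13.1 to 16.0 CPM in nlsYAP5SA mice (0.23 ± 0.13, adjusted p = 0.291).

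The number of genes called depended on single samples of both groups. Without control 2, 4 genes were called lower, with Egr1 (adjusted p = 0.041) and Nr4a1 (adjusted p = 0.0337) beside Arc and Fosb. Over the fits that left out 1 sample each, between 1 and 4 of the 10 were called, beside 1210 to 1891 of all genes. Fosb lost its call without control 4, without control 5 and without each of nlsYAP5SA 1, 2, 3 and 4. Its log2 fold change stayed between -1.005 and -0.715 over these fits.

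The second comparison set nlsYAP5SA mice against C57BL/6 mice, using the same 5 nlsYAP5SA samples, so its values are not independent of the first. Of the 10 genes, 6 fell: Fos, Fosb, Egr1, Arc, Npas4 and Nr4a1. None rose. Over all 16641 genes tested, 2.22% were called lower and 4.16% higher. The median log2 fold change of the 10 was -0.63, against -0.01 over all genes tested. Of the 10, 7 (these 6 and Junb) had every nlsYAP5SA sample below every C57BL/6 sample, which 6.47% of all genes tested showed.

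Arc was at 36.8, 45.6 and 39.3 CPM in the 3 C57BL/6 mice, more than any nlsYAP5SA sample, and fell 2.41-fold (log2 -1.27 ± 0.09, SE, n = 5 and 3, adjusted p = 4.5e-05). Fosb was at 3.63, 4.65 and 5.33 CPM in C57BL/6 mice and fell 2.31-fold (-1.21 ± 0.21, adjusted p = 0.0107). Both genes were thus called in the same direction against each of the other groups. Npas4 was at 8.43, 7.24 and 7.71 CPM in C57BL/6 mice, against at most 5.83 CPM in nlsYAP5SA mice, and fell 1.88-fold (-0.91 ± 0.22, adjusted p = 0.0394).

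Egr1 was at 115, 131 and 132 CPM in C57BL/6 mice, again clear of the nlsYAP5SA samples, and fell 1.57-fold (-0.65 ± 0.09, adjusted p = 0.00258). Nr4a1 was at 25.9, 35.9 and 30.3 CPM and fell 1.56-fold (-0.64 ± 0.14, adjusted p = 0.0276). Fos was at 14.7, 18.5 and 15.3 CPM and fell 1.54-fold (-0.62 ± 0.14, adjusted p = 0.0259). For each of the 3 genes, all C57BL/6 mice also lay above controls 1 and 2. Junb was at 18.8, 21.4 and 19.2 CPM in C57BL/6 mice, and its highest nlsYAP5SA sample was at 18.8 CPM, so the gap between the groups was narrow (-0.21 ± 0.09, adjusted p = 0.211). Fosl2 (0.31 ± 0.10, adjusted p = 0.112), Jun (0.06 ± 0.06, adjusted p = 0.63) and Dusp1 (0.02 ± 0.09, adjusted p = 0.909) did not pass the test.

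Arc was called in each of the 20 alternative fits of this comparison, with an adjusted p of at most 0.0466, Fosb in 17 and Egr1 in 16. Nr4a1 was called in 13, Fos in 11 and Npas4 in 10. The log2 fold change of Nr4a1 ranged from -0.748 to -0.169 over the 20 fits. With all 13 samples in one fit, where the controls also set the spread, 3 genes were called lower (Fosb, Arc and Npas4), and among samples with Y-linked counts, 2 nlsYAP5SA and 2 C57BL/6 mice, 1 gene was called (Arc, -1.21, adjusted p = 0.0168). Leaving out nlsYAP5SA 1, nlsYAP5SA 5 or C57BL/6 2 left 3 called genes (Fosb, Egr1 and Arc). Without C57BL/6 3, 7 genes were called, the same 6 lower and Fosl2 higher (0.43, adjusted p = 0.0243).

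**Figure D2:**
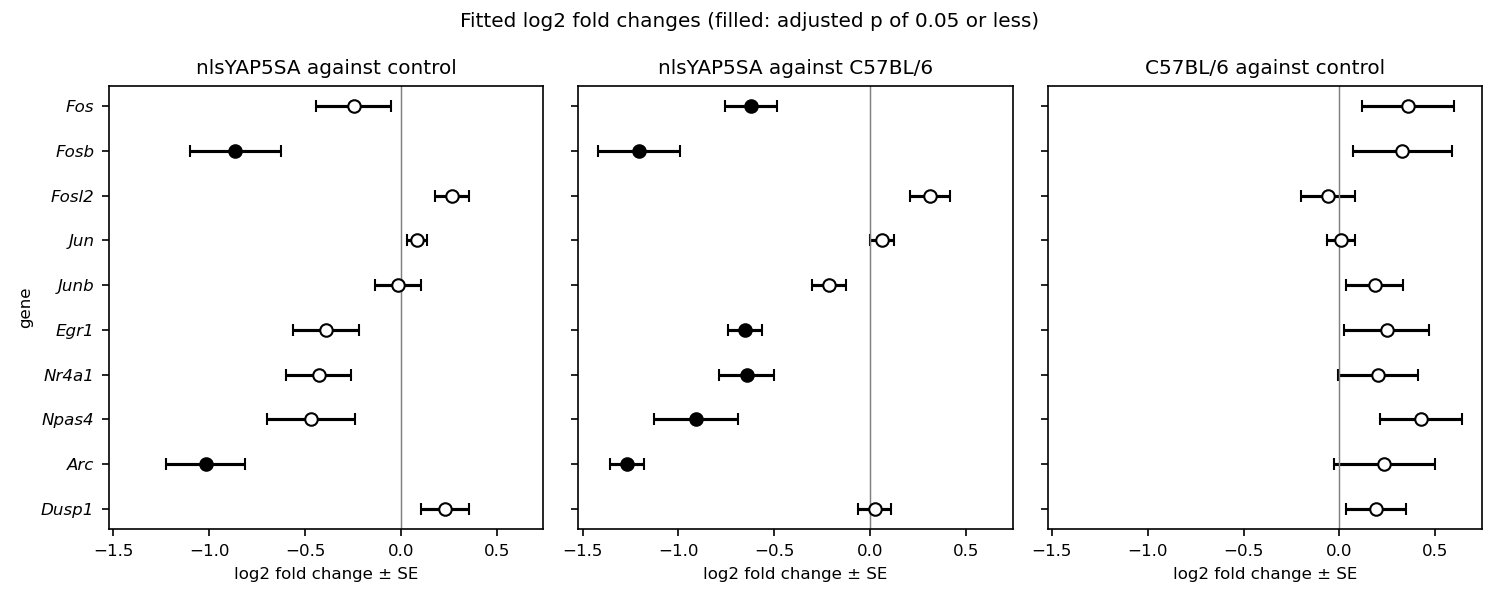
Log2 fold change with its SE for the 10 genes in the 3 comparisons, from the edgeR fits, with filled points for an adjusted p of 0.05 or less. Arc (-1.02 and -1.27) and Fosb (-0.86 and -1.21) are filled against both control and C57BL/6, 4 further genes are filled against C57BL/6 alone, and no point is filled for C57BL/6 against control.

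The third comparison, of C57BL/6 with control, set mice without the transgene allele against mice that carried it without Cre. The C57BL/6 mice came from other litters, so allele and litter cannot be told apart here, and the same holds for genotype and litter in the second comparison. None of the 10 genes was called by edgeR, by DESeq2 or by limma voom, and none had an unadjusted p of 0.05 or less in edgeR. Over all 16546 genes tested, 0.0484% were called higher and 0.121% lower, so few calls were to be had for any gene. The log2 fold changes were 0.43 ± 0.22 for Npas4, 0.36 ± 0.24 for Fos, 0.33 ± 0.26 for Fosb, 0.25 ± 0.22 for Egr1, 0.23 ± 0.26 for Arc, 0.20 ± 0.21 for Nr4a1, 0.19 ± 0.16 for Dusp1, 0.18 ± 0.15 for Junb, 0.01 ± 0.07 for Jun and -0.06 ± 0.14 for Fosl2 (SE, n = 3 and 5). The value was above 0 for 9 of the 10, with a median of 0.22, against 0.00 over all genes tested. The same 5 controls served here as in the first comparison, and the spread between controls 1 and 2 and the other 3 entered each of these errors.

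The 10 genes varied together between mice of the same group. On log2(CPM + 0.5) values, as deviations from the mean of each sample's own group, 44 of the 45 gene pairs correlated positively over the 13 samples, with a median Pearson r of 0.625. Egr1 with Arc (r = 0.963), Fos with Junb (r = 0.945) and Egr1 with Nr4a1 (r = 0.926) were the closest, whereas Fosb with Jun (r = -0.05) and Fosl2 with Jun (r = 0.117) were the least alike. Genes of one library share its RNA sample and depth, so these values are a description. The mean deviation of the 10 genes was -0.30 in control 1, -0.42 in control 2, 0.15 in control 3, 0.33 in control 4 and 0.23 in control 5. In nlsYAP5SA mice it ranged from -0.10 to 0.14 and in C57BL/6 mice from -0.07 to 0.05. Thus the controls carried most of the variation, and all 10 genes were below their group mean in control 2 and 9 of them in control 1. In nlsYAP5SA 4 the genes were split, with 5 of the 10 below the group mean. There Nr4a1 was at -0.387 and Egr1 at -0.184, but Npas4 at 0.476 and Fos at 0.202. Pairs within other gene sets were not measured.

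**Figure D3:**
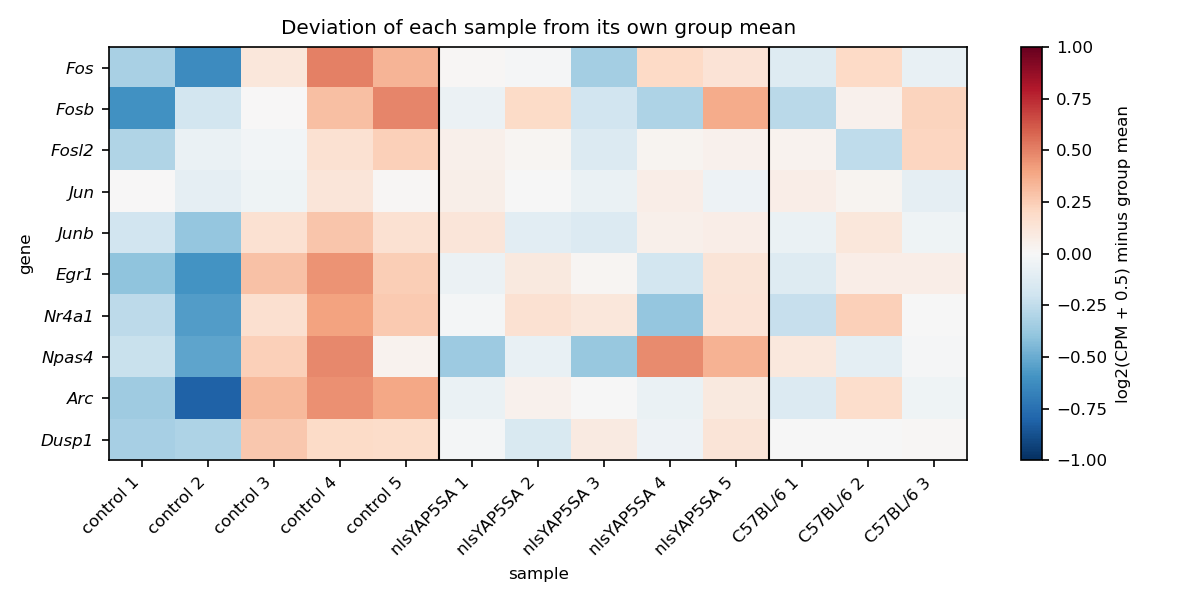
Deviation of each sample (columns) from the mean of its own group for the 10 genes (rows), as log2(CPM + 0.5), from blue (below) to red (above). Controls 1 and 2 are blue in nearly all rows and controls 4 and 5 are red, with mean deviations of -0.30, -0.42, 0.33 and 0.23.

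Of 13264 other genes that averaged 50 counts or more, the 10 whose deviations were most like the mean of the early genes were Mylk (r = 0.926), Mtcl1 (0.919), Armcx4 (0.918), Akna (0.913), Actn1 (0.908), Myh14 (0.907), Acss2 (0.906), Mapk14 (0.905), Syt7 (0.905) and Daam2 (0.901), all as Pearson r over 13 samples. Mylk (myosin light chain kinase), Actn1 (an actin cross-linker) and Myh14 (a non-muscle myosin heavy chain) are genes of the actomyosin cytoskeleton, Mapk14 encodes the MAP kinase p38 alpha, and Syt7 encodes a calcium sensor of synaptic vesicles. In nlsYAP5SA against control, Akna rose (log2 0.56, adjusted p = 0.00465), Acss2 fell (-0.48, adjusted p = 6.3e-05) and Syt7 fell (-0.19, adjusted p = 0.0307). The other 7 were not called in that comparison, where 7.36% of all genes were called higher and 3.44% lower. Against C57BL/6, Akna rose (0.51, adjusted p = 0.0236) and Mtcl1 (-0.29, adjusted p = 0.0305), Acss2 (-0.49, adjusted p = 0.00126) and Syt7 (-0.28, adjusted p = 0.0274) fell, beside 4.16% higher and 2.22% lower over all genes.

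Myelin genes were low in the same 2 controls as the early genes. The summed level of Mbp, Mog and Mag, made by oligodendrocytes, was 1173 CPM in control 1 and 1072 CPM in control 2, against 1585 to 1685 CPM in controls 3 to 5. It was 658 to 1392 CPM in nlsYAP5SA mice and 1464 to 2288 CPM in C57BL/6 mice. Within nlsYAP5SA mice the order differed, since replicate 4 had the lowest myelin level (658 CPM) with a mean early gene deviation of -0.02, and replicate 3 had the lowest deviation (-0.10) at 1120 CPM of myelin genes. None of the 3 was called against control, where 3.44% of all genes were called lower. The log2 fold change there was -0.49 ± 0.18 for Mbp (adjusted p = 0.112), -0.75 ± 0.24 for Mog (adjusted p = 0.0686) and -0.60 ± 0.20 for Mag (adjusted p = 0.0808). Against C57BL/6, 2 of the 3, Mog and Mag, fell, beside 2.22% of all genes. With the log2 myelin level as a covariate, chosen after seeing the data, the log2 fold change against control was -0.58 for Arc (adjusted p = 0.108), -0.44 for Fosb (adjusted p = 0.271), 0.02 for Egr1 and 0.01 for Nr4a1, and none of the 10 genes was called. Against C57BL/6, Arc alone of the 10 was called with this covariate (-1.07, adjusted p = 0.00845). The part of the myelin level in these results was not tested beyond these fits, and myelin and genotype differ together in this design.

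**Figure D4:**
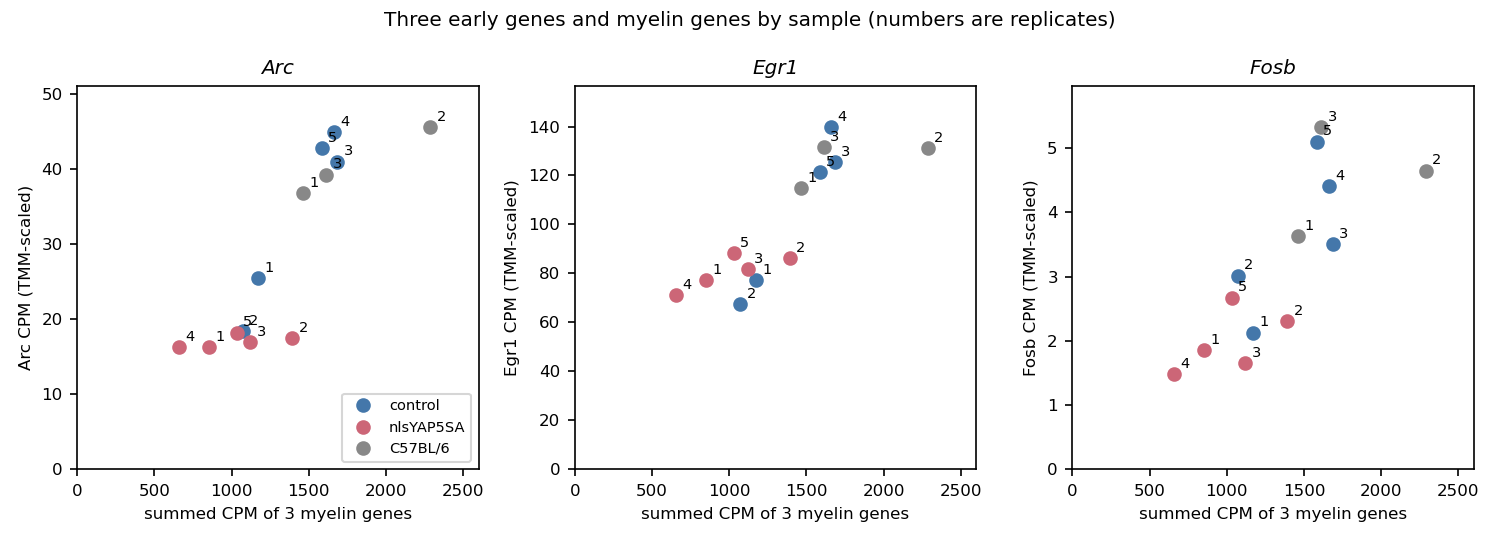
Arc, Egr1 and Fosb (TMM-scaled CPM) against the summed CPM of 3 myelin genes in each sample, with the replicate number beside each point. Controls 1 and 2, at 1173 and 1072 CPM of myelin genes, lie with or near the nlsYAP5SA samples, and controls 3 to 5 lie with C57BL/6 mice.

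Neuronal markers were measured because synaptic activity is one of the signals that induce early genes. In which cells the early genes were read was not measured. In a bulk hemisphere, fewer cells of a type and less RNA per cell cannot be told apart. None of the 4 excitatory neuron markers (Slc17a7, Neurod2, Tbr1 and Camk2a) was called in either comparison of nlsYAP5SA. Their summed level was 2112 to 2779 CPM in controls. It was 1873 to 2463 CPM in nlsYAP5SA mice and 2293 to 2482 CPM in C57BL/6 mice, and controls 1 and 2, at 2112 and 2138 CPM, were again the lowest controls. Of 4 hippocampal markers, 2 fell against control: Fibcd1, a marker of CA1 (log2 -0.78 ± 0.07, adjusted p = 2.3e-05), and Grik4, a marker of CA3 (-0.40 ± 0.08, adjusted p = 0.00424). The summed level of the 4 was 94.5 to 104 CPM in controls. It lay at 74.9 to 81.1 CPM in nlsYAP5SA mice and 89.0 to 111 CPM in C57BL/6 mice. Of 8 microglial markers, 7 rose against control, with a summed level of 443 to 577 CPM in nlsYAP5SA mice and 300.1 to 376 CPM in controls. Of 6 astrocyte markers, 3 rose against control, with a median log2 fold change of 0.29 over the 6. Among them Gfap rose 4.16-fold and Slc1a3 rose 1.24-fold, and the summed level was 4847 to 6787 CPM in nlsYAP5SA mice, overlapping the controls at 3048 to 5455 CPM. Of the remaining lists, those of inhibitory neurons (0 higher and 1 lower of 7), oligodendrocyte precursors (0 of 3), endothelium (0 and 2 of 5), mural cells (1 and 2 of 4), choroid plexus (1 and 0 of 5), ependyma (1 and 0 of 4), blood (0 of 5) and meninges (0 and 1 of 4) are given as genes called against control, where 7.36% of all genes tested were called higher and 3.44% lower, and the 3 neutrophil and T cell genes, at no more than 0.491 CPM in sum, were not tested. Controls 1 and 2 stood apart from controls 3 to 5 in the summed level of most lists, not in myelin and excitatory genes alone. Of the 14 marker lists, their summed level was below all of controls 3 to 5 in 10 and above them in 2. Astrocyte genes were at 3048 and 3546 CPM in sum in controls 1 and 2, against 4696 to 5455 CPM in the other 3. A sum follows its most abundant genes, here Slc1a2 (1711 and 2120 CPM, against 3090 to 3866 CPM). Slc1a3 and Aqp4 were also lower in controls 1 and 2, whereas Gfap, Aldoc and Aldh1l1 overlapped. Of the hippocampal genes, Prox1 was lower in controls 1 and 2, C1ql2 and Grik4 were higher and Fibcd1 overlapped. Blood genes were at 594 and 410 CPM, against 272 to 277 CPM. Among the sums, only those of choroid plexus genes, at 7.08 to 230 CPM in controls, and of the neutrophil and T cell genes overlapped. No listed marker was at 0 in all 13 samples, and the part of these cell types in the early gene results was not tested.

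Other AP-1 related genes were called in small numbers. Of 13 listed Fos, Jun, ATF and Maf relatives, 10 were tested, and 2 rose and none fell against control (median log2 fold change 0.10, against -0.01 over all genes tested, of which 7.36% were called higher and 3.44% lower). These were the Maf genes Maff, a small Maf without a transactivation domain (1.25 CPM in control against 3.25 CPM in nlsYAP5SA mice, log2 1.37 ± 0.19, adjusted p = 0.000509), and Mafk, another small Maf (0.65 ± 0.11, adjusted p = 0.00164). The same 2 rose against C57BL/6, where 4.16% of all genes were called higher. Jund and Fosl1 were not called in either comparison. Atf3, on 11 to 30 counts per sample, was not called against control, at an adjusted p just above 0.05 (log2 0.78 ± 0.23).

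Among 24 further early response genes, 5 rose and 4 fell against control, beside the same 7.36% and 3.44% of all genes. Those that rose were Zfp36, whose protein destabilises AU-rich messenger RNAs (log2 0.84 ± 0.16), the zinc finger factor genes Klf4 (0.59 ± 0.12) and Klf6 (0.26 ± 0.05), the stress gene Gadd45b (0.53 ± 0.10) and the pseudokinase gene Trib1 (0.29 ± 0.08). Those that fell were Nr4a3 (-0.43 ± 0.11) and Nr4a2 (-0.25 ± 0.07), the closest relatives of Nr4a1, and Ier5 (-0.38 ± 0.07) and Klf10 (-0.29 ± 0.06). Against C57BL/6, 1 rose (Klf6) and 4 fell: Ier5 (-0.78 ± 0.11), Ier2 (-0.65 ± 0.17), Egr2 (-0.59 ± 0.13) and Klf10 (-0.36 ± 0.07), beside 4.16% higher and 2.22% lower over all genes. The early response genes as a whole thus did not move one way.

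In the 3 remaining lists, the genes called were few (over all genes, 7.36% higher and 3.44% lower against control, 4.16% and 2.22% against C57BL/6). Of 15 genes of the later, protein-making phase of the activity response, 1 was called against control, Scg2, a neuropeptide precursor gene that rose (0.36 ± 0.06, adjusted p = 0.00294). The log2 fold change was below 0 for 10 of the 15 (median -0.16). Against C57BL/6, 1 of the 15 fell, Bdnf, the neurotrophin gene (-0.40 ± 0.07, adjusted p = 0.0107), and 11 were below 0 (median -0.25). Among 17 MAP kinase feedback genes, Errfi1, an inhibitor of EGF receptor signalling, rose (0.31 ± 0.07) and Dusp7, an ERK phosphatase gene, fell (-0.29 ± 0.05) against control, and Dusp7 also fell against C57BL/6 (-0.33 ± 0.06). Of 23 upstream kinase and transcription factor genes, 1 was called against control, Elk1, a ternary complex partner of SRF (-0.20 ± 0.05, adjusted p = 0.0278), and none against C57BL/6. Creb1, at 59.2 CPM in both groups, was not called. None of the genes of these 5 lists was called in C57BL/6 against control, where 0.0484% of all genes tested were called higher and 0.121% lower.

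**Figure D5:**
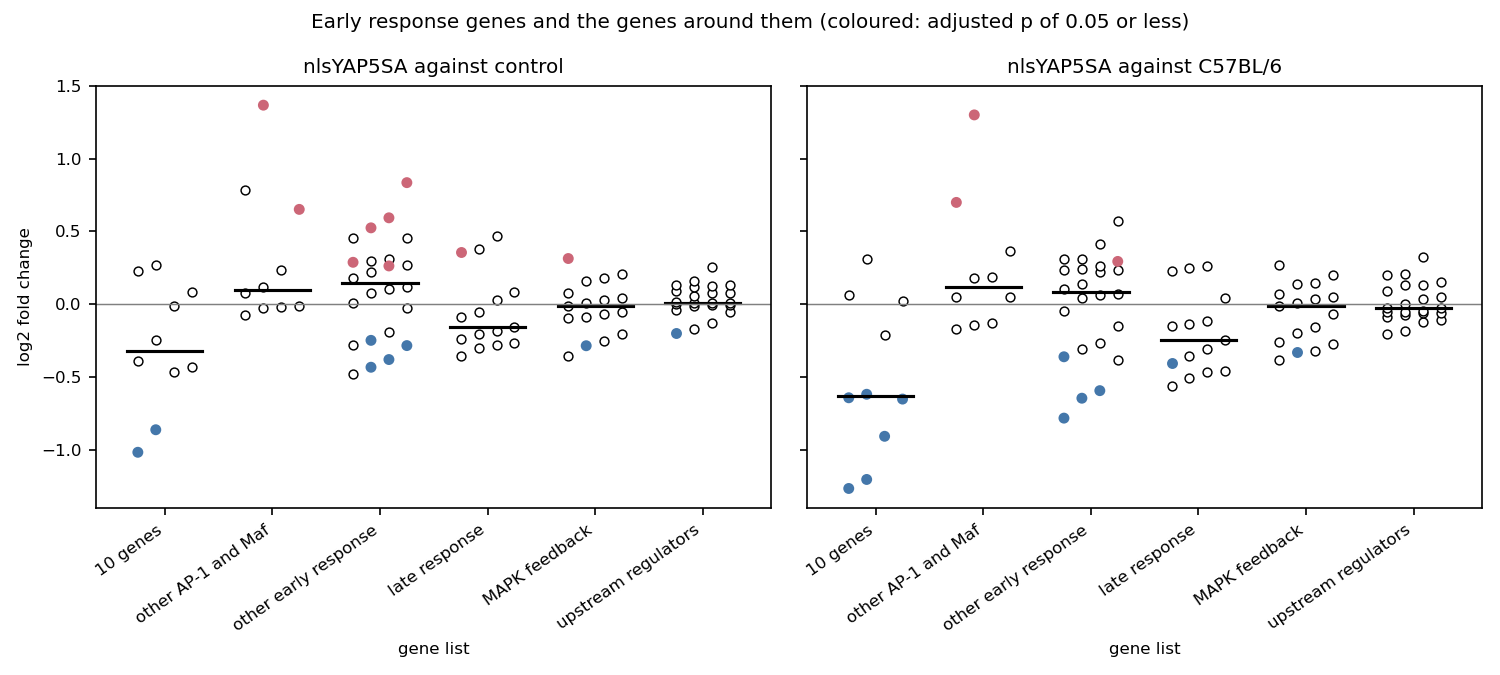
Log2 fold changes of the 10 early genes and of 5 lists of related genes in nlsYAP5SA against control (left) and against C57BL/6 (right), with coloured points for an adjusted p of 0.05 or less and a bar at the median of each list. The medians of the 10 early genes are -0.32 and -0.63, those of the upstream regulators are 0.01 and -0.03.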

How the data were processed

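RNA of 13 right hemispheres was sequenced after poly(A) selection (KAPA mRNA HyperPrep kit, Illumina HiSeq). Per the methods and the submitters' processing notes, the authors trimmed reads with CutAdapt 1.5, aligned them to GRCm38 with STAR and deposited the estimated counts of RSEM 1.3.0, which need not be whole. The strand setting is not given in the sources used here. Estimated counts were rounded. The 446 identifiers without a gene name held 0.0649% of counts and were left out. Genes were filtered with filterByExpr (at least 10 counts in enough samples, 15 in all) and tested in edgeR 4.0.16 (quasi-likelihood, TMM, two-sided, Benjamini-Hochberg over all genes tested), each pair of groups by itself. SE is the log2 fold change divided by the square root of F. Printed CPM used TMM over all 13 samples. Positions are from GENCODE vM21 (GRCm38), promoters from RefSeq. Fits were tested on simulated data. Alternatives used DESeq2 1.42.0, limma voom 3.58.1, other scalings and filters, covariates and fits without each sample. Where same-numbered samples are compared, correlations of deviations were between -0.32 and 0.31 for nlsYAP5SA with control, so the numbers were not taken as pairs.

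Named were the 10 genes, list genes called in a comparison, Yap1, Neurod6, Ctgf, Cyr61 and Ankrd1 as checks, and the 10 genes most like the mean of the early genes (mean of at least 50 counts). Untested or uncalled genes named beside these were chosen after their values were seen. The 10 genes and all lists were chosen with earlier results of these data known. Each library is 1 mouse as far as the labels say, and p-values measure the spread between these samples. Some genes of the lists are not reported here.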

Additional observations from a re-analysis of the deposited data

Results flagged for a closer look

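Fosl2 in nlsYAP5SA replicate 3, at 37.0 CPM, lay apart from the other 4 nlsYAP5SA mice, which were between 41.3 and 42.4 CPM. The gap took 0.81 of the range of the 5 samples, above Dixon's limit of 0.71. It was the 1 such sample among 20 groups examined (10 genes in controls and in nlsYAP5SA mice), and chance alone gives about 1 in 20.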

How the results depend on the processing

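Arc kept its direction in every fit run in nlsYAP5SA against control and was called in 19 of 22 alternatives there and in 20 of 20 against C57BL/6. The number of early genes called against control (2) became 0 with the Y-linked level or the myelin level as covariate and among samples with Y-linked counts, 1 with limma voom, and ranged from 1 to 4 when 1 sample was left out (Fosl2 among them, higher, without control 5). Against C57BL/6 (6) it became 3 with all 13 samples in one fit and 1 with the myelin covariate, among samples with Y-linked counts and with a replicate block, and ranged from 3 to 7 when 1 sample was left out (7 with Fosl2, higher, without C57BL/6 3). All genes called against control (1761) became 542 and 334 with the Y-linked covariate and among samples with Y-linked counts. Those against C57BL/6 (1061) became 1596 with DESeq2, 182 with the myelin covariate and 47 among samples with Y-linked counts, and ranged from 401 to 1757 when 1 sample was left out. Those of C57BL/6 against control (28) became 59 with DESeq2, 44 with all 13 samples and 16 with at least 10 counts in every sample. The shared replicate numbers did not pair the samples. With a replicate block, 1239 genes were called against control, 26 against C57BL/6 and 15 in C57BL/6 against control, and Arc and Fosb stayed called against control.

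Signs turned only for uncalled values. Junb against control became 0.008 (limma voom), 0.1 (myelin covariate), 0.068 (GC content and length offset) and 0.001 (replicate block), and -0.104 to 0.064 when 1 sample was left out. In C57BL/6 against control, Fosl2 became 0.059 (Y-linked covariate) and 0.067 (replicate block), with -0.192 to 0.062 when 1 sample was left out. Jun there became -0.005 (Y-linked covariate), -0.018 (library size alone), -0.021 (myelin covariate) and -0.001 (no filter), with -0.027 to 0.038 when 1 sample was left out. With the myelin covariate, Junb became -0.01, Egr1 -0.016, Arc -0.096 and Nr4a1 -0.099 there, and Egr1 became 0.023 and Nr4a1 0.006 in nlsYAP5SA against control. Dusp1 against C57BL/6 was -0.002 to 0.06 when 1 sample was left out. The median r of 0.625 between the early genes was 0.526 to 0.693 when 1 sample was left out. The causes were not tested. The low counts of Fosb and Npas4 limit what a single mouse can show.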
